A study of Mus musculus with 16 samples.

Results

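The comparison set 3 monoclonal antibodies against HSP70, as 1 set, against an isotype control in the pigmented mouse melanoma line B16-F10, of wild type genotype, after 24 hours of incubation. Its members were the batch 1 libraries of Mel321-31 (n = 4), Mel322-34 (n = 4) and Mel321-35 (n = 2, replicates 3 and 4) and those of the control antibody MGO.53 (n = 4), 14 libraries of the 16 samples that the labels describe. All 4 groups received an antibody in complete medium with serum, so the contrast is between antibodies and holds no untreated cells. Replicate 1 of Mel321-35 is labelled batch 2 and stayed out, and its replicate 2 was not analysed here. Each antibody counted equally in the mean, whatever its number of libraries, and genes with a Benjamini-Hochberg adjusted p under 0.05 (edgeR), over the 14633 tested, are referred to as called. The 3 antibodies share the same 4 control libraries, so their agreement in sign is given as a count and is not independent evidence. The labels call the samples biological replicates of 1 cell line without saying whether they were separate cultures, and p-values measure the spread between them.

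HSP70 proteins are chaperones that bind exposed hydrophobic stretches of other proteins inside the cell and release them through an ATP cycle driven by J-domain partners and exchange factors. Tumour cells also carry HSP70 on their surface and release it, and extracellular HSP70 can bind scavenger and pattern recognition receptors whose known outputs include NF-kB targets, interferon-stimulated genes and survival signalling. B16-F10 cells express the melanosome proteins and pigment enzymes of the melanocyte lineage. Bulk RNA levels were measured here, so fewer cells of a kind and less RNA per cell cannot be told apart.

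The antibody libraries held totals of 26.2 to 38.0 M counts (M, 1000000 counts; mean 33.3 ± 3.80 SD, n = 10) and the MGO.53 libraries 19.4 to 33.5 M (26.2 ± 5.76, n = 4; exact two-sided permutation p = 0.0280, adjusted p = 0.0420 over 3 library measures, where 0.000999 is the smallest p possible). The mitochondrial share of the counts was 2.02 ± 0.104% against 2.21 ± 0.215% (exact p = 0.0519, adjusted p = 0.0519). A set of 95 transcripts, chosen because the batch 2 library had at most 1 part in 8 of their mean level in batch 1, summed to 293 ± 125 CPM (counts per 1000000 counts) with the antibodies and 498 ± 137 CPM with MGO.53 (exact p = 0.0240, adjusted p = 0.0420, on the log2 scale). All 7 melanocyte markers were abundant, and their summed level was 29295 to 30560 CPM with the antibodies and 29633 to 30385 CPM in the controls. Of the other marker sets, 5 epithelial genes summed to 5.41 to 18.5 CPM with the antibodies and 13.8 to 24.0 CPM in the controls, with Epcam at 0. The 5 macrophage markers summed to 16.0 to 20.1 and 16.6 to 21.3 CPM, mostly from Cd68, with Adgre1 at 0. The 5 fibroblast markers summed to 7.45 to 9.54 and 8.79 to 11.2 CPM. The 4 T cell markers summed to at most 0.191 CPM and the 4 endothelial markers to at most 0.284 CPM in any library, with Cdh5 at 0.

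Against MGO.53, 754 genes were called in the mean of the antibodies and had the same sign with each of them, 369 higher (2.52% of the genes tested) and 385 lower (2.63%). They belonged to 758 calls in all (5.18%), and the other 4, Utrn, Nrp2, Vps13c and Pmepa1, had pooled log2 fold changes of 0.11 to 0.18 and values of -0.023 to -0.0010 with Mel321-35. The changes were small. The median log2 fold change was 0.16 among the higher genes and -0.18 among the lower ones, 43 and 128 of them reached 1.2-fold, and 7 (0.0478%) and 32 (0.219%) reached 2-fold. Those at 2-fold or more were scarce transcripts, with a median level of 0.395 CPM for the higher and 0.636 CPM for the lower ones, against 21.5 CPM over all genes tested. In 202 genes (1.38%) the 10 antibody libraries all lay above the 4 control libraries and in 167 (1.14%) all below, and 273 of these 369 genes (2.52%) were also called (1.87%), 149 higher (1.02%) and 124 lower (0.847%).

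**Figure D1:**
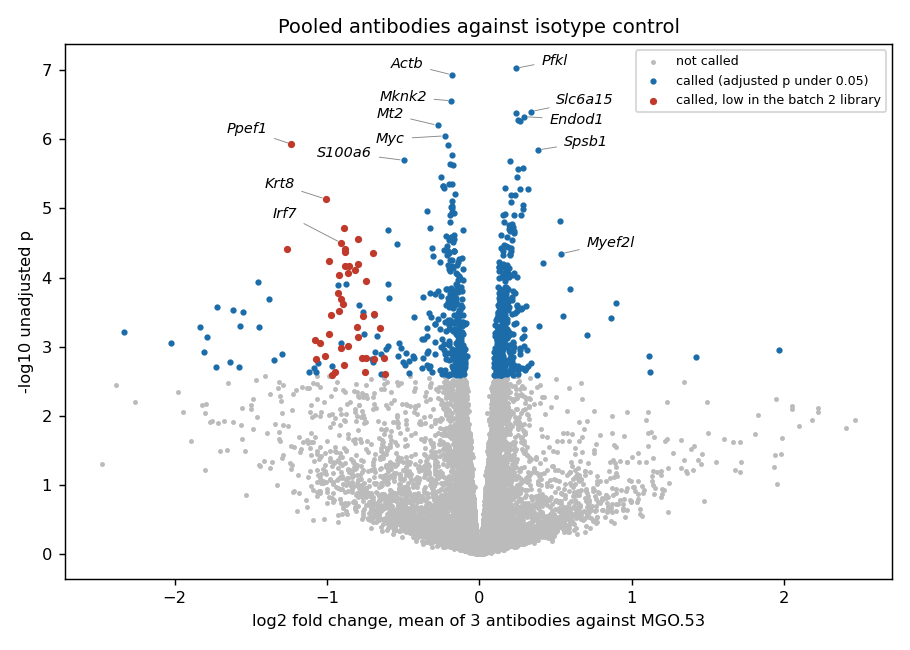
Pooled log2 fold change (x axis, mean of 3 antibodies against MGO.53) and -log10 of the unadjusted p (y axis) of each gene tested, with called genes in blue and called genes that are low in the batch 2 library in red. Most called genes lie close to 0, and the 43 red points all lie on the lower side; 7 called genes lie beyond the axis limit of 2.5.

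The medians of these genes were similar with each antibody, while the number called with each alone was not. The genes were chosen by the mean of the antibodies and by 1 sign with each. Similar medians therefore follow in part from the choice. Among the 369 higher genes the median log2 fold change was 0.16 with Mel321-31, 0.19 with Mel322-34 and 0.14 with Mel321-35, and among the 385 lower genes it was -0.18, -0.21 and -0.17. Taken alone against MGO.53, Mel321-31 gave 517 calls (3.53%), 206 higher (1.41%) and 311 lower (2.13%). Mel322-34 gave 1005 calls (6.87%), 589 higher (4.03%) and 416 lower (2.84%). Mel321-35, with 2 libraries, gave 6 calls (0.0410%), 5 higher (0.0342%) and 1 lower (0.00683%). With an unadjusted p under 0.05 for each antibody on its own, 550 genes (3.76%) went one way with all 3. Of the pooled calls, 56 higher and 58 lower genes were called with no antibody alone. The higher and lower genes also differed in transcript length, a property that the choice did not use. The median length of the longest annotated transcript was 5337 bases for the higher genes, 2058 bases for the lower genes and 3117 bases for all genes tested. Spearman's rho of the pooled log2 fold change with length was 0.392 across the 10170 genes over 2 mean log2 CPM. These genes share the 14 libraries. With the length trend of each library removed, 610 genes were called (257 higher, 353 lower), 445 of them among the 758.

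The number of calls rested on single control libraries. Without MGO.53 replicate 2, which had the lowest total count, 90 genes were called (45 higher, 45 lower), 89 of them among the 758. In that fit 2403 genes had an unadjusted p under 0.05 (edgeR), against 3079 of 14633 with all libraries. Without MGO.53 replicate 4 there were 240 calls (111 higher, 129 lower). Without Mel321-35 replicate 3 there were 302, without MGO.53 replicate 1 454, without Mel321-31 replicate 2 503, and without Mel321-31 replicate 1 1475. With the log2 total count of each library as a covariate, chosen after the data were seen, edgeR called 0 genes, with 1739 at an unadjusted p under 0.05. In that fit the 758 genes kept their sign and 616 of them had an unadjusted p under 0.05, the median absolute log2 fold change of the 758 went from 0.171 to 0.143 and the median SE from 0.0415 to 0.0517. The log2 summed level of the 95 transcripts that are low in the batch 2 library was also used as a covariate. That fit called 117 genes (61 higher, 56 lower), 82 of them among the 758, and 15 of the 758 changed sign. Of the 758 genes, 77 (41 higher, 36 lower) were called whichever 1 of the 14 libraries was left out.

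**Figure D2:**
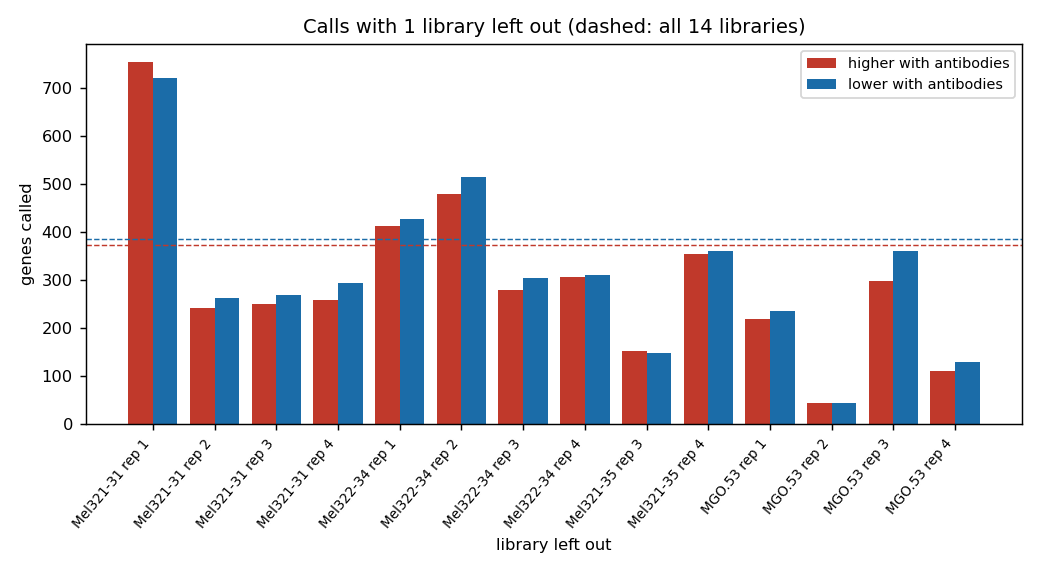
Number of genes called higher (red) and lower (blue) in the pooled contrast when each of the 14 libraries was left out in turn (x axis), with dashed lines at the 373 and 385 genes called with all libraries. The counts fall to 45 and 45 without MGO.53 replicate 2 and reach 754 and 721 without Mel321-31 replicate 1.

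Only 2 genes (0.0137%) passed the test in one direction with each of the 3 antibodies on its own, Pfkl upward and Mknk2 downward. Pfkl (ENSMUSG00000020277) encodes the liver-type phosphofructokinase, which commits glucose to glycolysis. In replicate order, it stood at 169, 156, 163 and 156 CPM with Mel321-31, 177, 182, 168 and 164 CPM with Mel322-34, 172 and 167 CPM with Mel321-35 and 147, 140.0, 139 and 141 CPM with MGO.53. Every antibody library lay above every control library. The pooled log2 fold change was 0.24 ± 0.034 (SE), an increase of 18.1% (adjusted p = 0.000862), with 0.18, 0.28 and 0.26 for Mel321-31, Mel322-34 and Mel321-35. Mknk2 (ENSMUSG00000020190) encodes a kinase downstream of ERK and p38 that phosphorylates the cap-binding protein eIF4E. It stood at 365, 357, 368 and 361 CPM with Mel321-31, 358, 351, 349.7 and 332 CPM with Mel322-34, 343 and 351 CPM with Mel321-35 and 412, 408, 388 and 391 CPM with MGO.53. Every antibody library lay below every control library, and the pooled log2 fold change was -0.18 ± 0.027 (SE), a decrease of 11.9% (adjusted p = 0.000991), with -0.14, -0.20 and -0.20 in the same order. Both genes were among the 77 calls that the loss of no single library removed.

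Actb, Dynlt3 and Myc were among the changes with the smallest p. Actb (ENSMUSG00000029580), the cytoskeletal beta-actin, stood at 2510, 2511, 2508 and 2543 CPM with Mel321-31, 2525, 2383, 2539 and 2613 CPM with Mel322-34, 2497 and 2577 CPM with Mel321-35 and 2678, 2955, 2860 and 2926 CPM with MGO.53, with no overlap between the groups. Its log2 fold change was -0.18 ± 0.025 (SE, adjusted p = 0.000862), and -0.18, -0.18 and -0.17 by antibody. Dynlt3, a light chain of the dynein motor, rose by 0.24 ± 0.037 (SE) on the log2 scale, with 0.25, 0.23 and 0.24 by antibody, from 72.2, 75.5, 78.2 and 76.8 CPM in the controls to 84.8, 89.5, 96.5 and 89.5 CPM with Mel321-31, 87.4, 87.8, 88.4 and 90.5 CPM with Mel322-34 and 90.8 and 88.1 CPM with Mel321-35. Myc, the growth-promoting transcription factor, stood at 91.8, 88.6, 89.8 and 90.5 CPM with Mel321-31, 90.7, 86.9, 87.3 and 91.0 CPM with Mel322-34, 92.0 and 97.0 CPM with Mel321-35 and 100.2, 116, 103 and 109 CPM with MGO.53, and fell by 14.5% (log2 fold change -0.23 ± 0.036 (SE), adjusted p = 0.00131). Its log2 fold changes by antibody were -0.24, -0.26 and -0.18, and no antibody library reached the lowest control value. Actb, Dynlt3 and Myc were all called whichever library was left out.

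**Figure D3:**
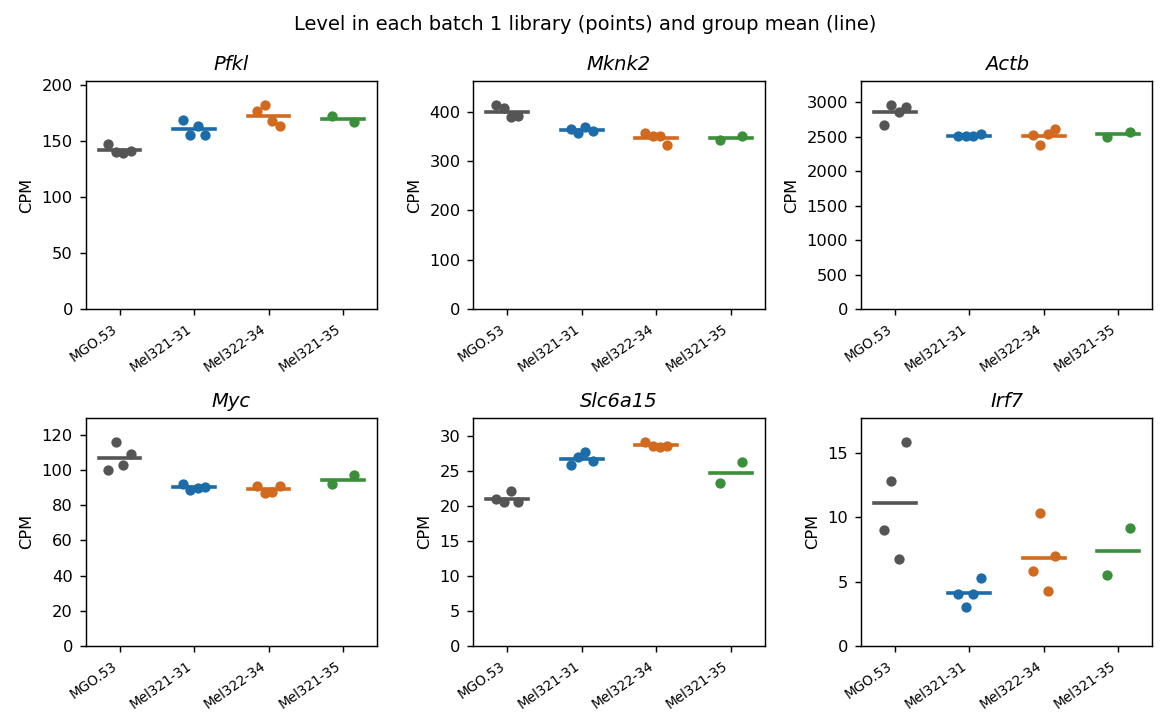
CPM (y axis, from 0) of 6 genes in each of the 14 batch 1 libraries, grouped by antibody (x axis), with lines at the group means. The antibody points of Pfkl and Slc6a15 lie above and those of Mknk2, Actb and Myc below all 4 MGO.53 points, while the groups overlap for Irf7.

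Among genes with a gene symbol other than a clone name and a mean log2 CPM of at least 1, the largest increases without overlap of the groups were those of Myef2l, Klhl11, Spsb1, Slc6a15, Zfp654, Zfp345, Birc2, Endod1, Dixdc1 and Zfp955a. Myef2l, a relative of a myelin gene regulator, was scarce, at 5.95, 6.31, 5.30 and 6.08 CPM with Mel321-31, 5.04, 5.52, 5.48 and 5.36 CPM with Mel322-34, 4.85 and 6.55 CPM with Mel321-35 and 4.25, 4.24, 3.57 and 3.47 CPM with MGO.53. Its log2 fold change was 0.54 ± 0.11 (SE, adjusted p = 0.00689), and 0.61, 0.46 and 0.54 by antibody. Klhl11, an adaptor of cullin ubiquitin ligases, rose by 0.42 ± 0.088 (SE) on the log2 scale, with control libraries at 10.2, 10.7, 10.2 and 10.6 CPM and antibody libraries from 10.8 to 16.0 CPM. Spsb1, an adaptor of the same kind of ligase, had 19.3, 19.2, 22.2 and 20.3 CPM with Mel321-31, 23.2, 23.8, 24.5 and 21.8 CPM with Mel322-34, 20.9 and 18.4 CPM with Mel321-35 and 15.6, 15.4, 17.8 and 15.6 CPM with MGO.53, and its change on the log2 scale was 0.39 ± 0.064 (SE, adjusted p = 0.00161). Slc6a15, a transporter of branched neutral amino acids, had 25.8, 27.0, 27.7 and 26.4 CPM with Mel321-31, 29.1, 28.5, 28.3 and 28.6 CPM with Mel322-34, 23.2 and 26.2 CPM with Mel321-35 and 21.0, 20.5, 22.1 and 20.5 CPM with MGO.53. Its lowest antibody value stood above the highest control value, and the log2 fold change was 0.34 ± 0.052 (SE, adjusted p = 0.000991). Birc2, which encodes the apoptosis inhibitor cIAP1, rose by 0.31 ± 0.073 (SE) on the log2 scale, with 0.29, 0.28 and 0.35 by antibody. Endod1 rose by 0.29, the zinc finger genes Zfp654, Zfp345 and Zfp955a by 0.32, 0.31 and 0.29, and Dixdc1, a positive regulator of Wnt signalling, by 0.29. Birc2, Dixdc1, Zfp345 and Zfp955a lost their calls without MGO.53 replicate 2, and the other 6 of these 10 genes kept theirs without any single library.

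Skil and Erbb3 completed the increases with the smallest p. Skil, which encodes SnoN, a repressor in TGF-beta signalling, stood at 76.5, 90.7, 89.3 and 88.7 CPM with Mel321-31, 92.6, 95.7, 98.1 and 93.6 CPM with Mel322-34, 83.6 and 80.8 CPM with Mel321-35 and 72.9, 75.2, 67.9 and 75.1 CPM with MGO.53, and its change on the log2 scale was 0.27 ± 0.042 (SE, adjusted p = 0.000991). Erbb3, the neuregulin receptor and partner of ERBB2 in the melanocyte lineage, stood at 65.1, 72.7, 67.8 and 70.9 CPM with Mel321-31, 81.8, 81.5, 82.0 and 83.4 CPM with Mel322-34, 70.0 and 66.4 CPM with Mel321-35 and 58.7, 58.2, 64.3 and 63.3 CPM with MGO.53. All antibody libraries exceeded all controls for both genes, and Erbb3 was the more uneven, at 0.18, 0.43 and 0.16 by antibody.

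By the same rule, the largest decreases without overlap were those of Exoc3l4, S100a6, Rpp38, Chst12, Atp5g2, Cdc42ep5, Higd2a, Ube2l6, Chchd5 and Mt2. The clone names Gm15772 (-0.60), Gm12254 (-0.53) and, on the higher side, AU041133 (0.38) had changes as large and fell outside the rule. S100a6, a calcium-binding protein linked to migration in melanoma, stood at 10.3, 7.69, 8.61 and 9.27 CPM with Mel321-31, 10.6, 11.2, 9.26 and 10.3 CPM with Mel322-34, 10.1 and 11.9 CPM with Mel321-35 and 12.9, 15.1, 12.9 and 15.9 CPM with MGO.53. Its pooled log2 fold change was -0.50 ± 0.083 (SE), a decrease of 29.1% (adjusted p = 0.00186). Mt2, a metallothionein that binds zinc and copper, stood at 149, 126, 135 and 132 CPM with Mel321-31, 142, 117, 125 and 132 CPM with Mel322-34, 144 and 137 CPM with Mel321-35 and 162, 172, 161 and 157 CPM with MGO.53, and fell by 17.3% (log2 fold change -0.27 ± 0.043 (SE)). Chst12, a sulfotransferase of chondroitin chains, had 17.5, 16.1, 16.4 and 15.5 CPM with Mel321-31, 15.4, 15.4, 17.8 and 15.6 CPM with Mel322-34, 15.2 and 12.9 CPM with Mel321-35 and 19.1, 21.2, 19.7 and 18.6 CPM with MGO.53 and fell by 0.34 ± 0.064 (SE) on the log2 scale. Its highest antibody value, 17.8 CPM, was below the lowest control value of 18.6 CPM. Exoc3l4 (-0.51), Rpp38, a protein of ribonuclease P (-0.37), Cdc42ep5, an effector of the GTPase CDC42 (-0.32), and the mitochondrial proteins Atp5g2 (-0.33), Higd2a (-0.30) and Chchd5 (-0.29) fell as well, as did Ube2l6, the enzyme that conjugates ISG15 (-0.29). Hmga1, an architectural chromatin protein, joined them by its small p, at 211, 213, 223 and 221 CPM with Mel321-31, 207, 190.0, 204 and 206 CPM with Mel322-34, 209.6 and 224 CPM with Mel321-35 and 244, 264, 232 and 239 CPM with MGO.53, a decrease of 13.4%. Of these 11 genes, S100a6, Mt2, Chst12 and Hmga1 were called whichever library was left out, and Rpp38 also kept its call without MGO.53 replicate 2.

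**Figure D4:**
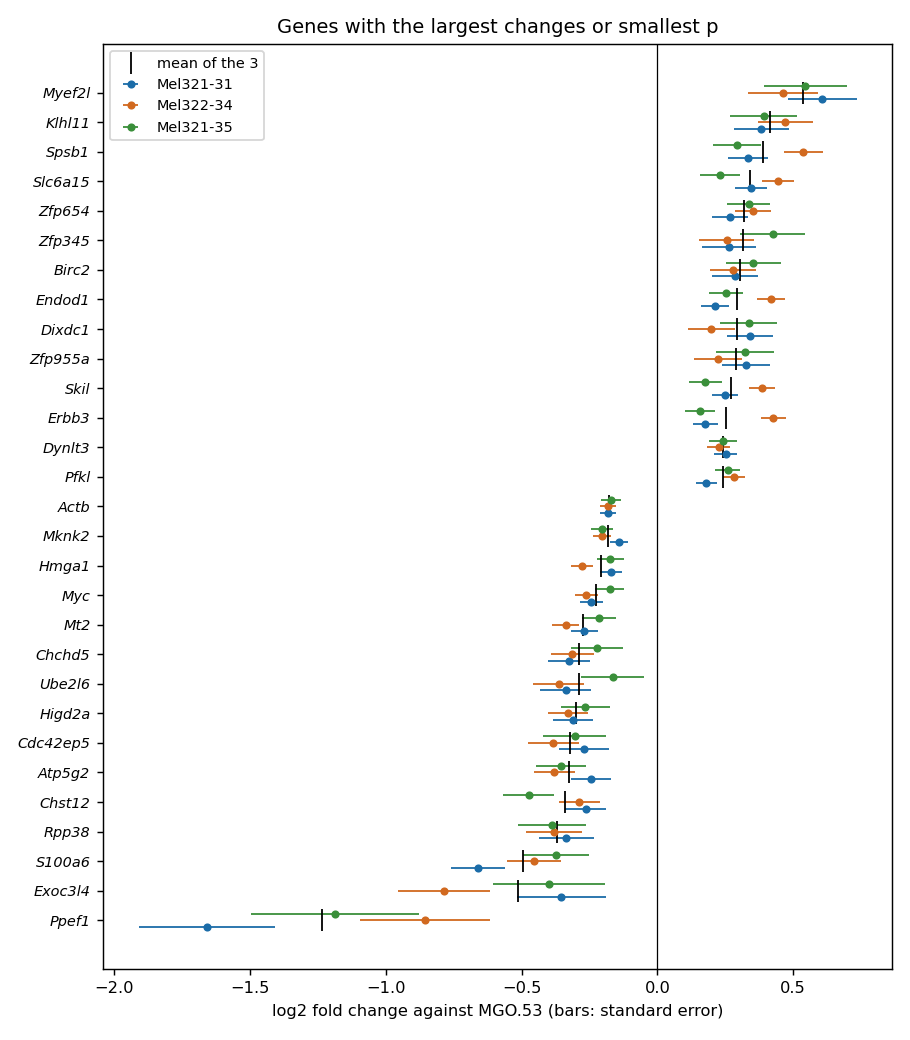
Log2 fold change against MGO.53 (x axis, bars show the standard error) of each antibody for the genes with the largest changes or smallest p (y axis), with a black tick at the mean of the 3. Genes were shown only if the 3 antibodies had the same sign, so lying on the same side of 0 follows from the choice. The 3 antibodies share the control libraries.

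Neither the cytosolic HSP70 genes nor their main partners were called. Hspa8, the constitutive cytosolic HSP70, stood at 2074, 2057, 1968 and 2029 CPM with Mel321-31, 1955, 1918, 1970 and 1929 CPM with Mel322-34, 1888 and 1876 CPM with Mel321-35 and 2060, 2069, 1960 and 1988 CPM with MGO.53, and its log2 fold change was -0.049 ± 0.022 (SE, adjusted p = 0.199). The stress-inducible Hspa1b was scarce, at 3.79, 3.12, 2.42 and 2.28 CPM with Mel321-31, 3.59, 4.19, 2.85 and 2.71 CPM with Mel322-34, 3.81 and 4.52 CPM with Mel321-35 and 2.51, 3.46, 3.19 and 2.77 CPM with MGO.53, and its change on the log2 scale was 0.21 ± 0.16 (SE, adjusted p = 0.487). How reads were divided between Hspa1b and its near-identical copy Hspa1a, which had too few counts to test, is uncertain. Hsp90aa1, the inducible cytosolic HSP90, had a log2 fold change of 0.019 ± 0.024 (SE), the exchange factor Hsph1 0.021 ± 0.030 (SE) and the J-domain partner Dnajb1 0.0010 ± 0.041 (SE). Of 32 heat shock genes tested, 2 rose and 2 fell, 6.25% each against 2.55% and 2.63% of all genes. The list median was 0.020 against -0.00045 over all genes tested. The 2 that rose were Hspa13, a microsomal HSP70 relative (0.18), and Dnajb4, a J-domain protein (0.20). Those that fell were Hsf1, the transcription factor of the heat shock response (-0.13), and Stub1, a ubiquitin ligase that works with HSP70 (-0.12). Hsf1 had 91.2, 89.5, 87.1 and 87.3 CPM with Mel321-31, 81.6, 84.9, 82.2 and 87.4 CPM with Mel322-34, 84.7 and 82.2 CPM with Mel321-35 and 95.4, 92.3, 94.5 and 92.2 CPM with MGO.53, with no overlap between the groups. No member of the heat shock list was called without MGO.53 replicate 2, and its median was then 0.0034. Of 12 reported receptors of extracellular HSP70 that were tested, edgeR called 0, with 2 at an unadjusted p under 0.05 and a median of -0.061. Over all genes, 3079 of 14633 had an unadjusted p under 0.05.

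Of all lists, the interferon-stimulated genes had the highest share of called members. Of 44 tested, 17 fell (38.6%, against 2.63% of all genes) and 0 rose, with a median log2 fold change of -0.32, and -0.60, -0.21 and -0.16 by antibody. Irf7, the transcription factor that amplifies type I interferon, stood at 4.04, 3.06, 4.02 and 5.25 CPM with Mel321-31, 5.79, 10.3, 4.29 and 6.97 CPM with Mel322-34, 5.53 and 9.16 CPM with Mel321-35 and 9.0, 12.8, 6.72 and 15.8 CPM with MGO.53. The groups overlapped, with Mel321-31 below every control and the other antibodies reaching into the control range, and the log2 fold change was -0.91 ± 0.18 (SE, adjusted p = 0.00615), or -1.43, -0.69 and -0.60 by antibody. The log2 fold change was -0.92 ± 0.20 (SE) for Oas3, which answers double-stranded RNA, -0.88 ± 0.18 (SE) for Ifi44, -0.70 ± 0.14 (SE) for the ISG15 protease Usp18 and -0.60 ± 0.13 (SE) for Isg15 itself, a ubiquitin-like modifier. The smallest of the 17 decreases was that of Ifitm3, which blocks virus entry, at -0.27 ± 0.062 (SE). Members of this list are also among the 95 transcripts that are low in the batch 2 library, 9 of 44, Irf7, Ifi44 and Usp18 included, and these 3 had 0.429, 0 and 0.585 CPM in that library. Without MGO.53 replicate 2, 1 member was called, Ifi44 (adjusted p = 0.0458), and without MGO.53 replicate 4 again 1 member. The list medians in these fits were -0.28 and -0.27. With the summed level of the 95 transcripts as a covariate 0 members were called and the list median was 0.0016, and with the length trend removed 16 were called.

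The promoters of these genes bear on the group because many hold the element bound by interferon-activated factors, GAAANNGAAA or its opposite-strand form TTTCNNTTTC. Irf7 and Ifi44, also called, had 0 matches in the windows counted below. Of the called members with a match before the start, the 3 with the smallest pooled p are shown, so each holds the element by choice. The 250 bases before the start of these 3 members run 5′ to 3′ on the gene's strand (RefSeq, GRCm38.p6), with element matches in capitals. They are Oas3 at chr5:120777660-120777909 on the minus strand with 1 match, Isg15 at chr4:156200819-156201068 on the minus strand with 3 overlapping matches, and Gbp2, an interferon-induced GTPase, at chr3:142620413-142620662 on the plus strand with 1 match in the opposite orientation.
Oas3: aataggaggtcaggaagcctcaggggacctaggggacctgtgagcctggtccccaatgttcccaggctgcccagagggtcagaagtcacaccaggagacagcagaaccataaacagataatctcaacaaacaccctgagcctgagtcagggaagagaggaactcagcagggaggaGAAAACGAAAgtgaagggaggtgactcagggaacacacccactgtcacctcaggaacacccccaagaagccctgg
Isg15: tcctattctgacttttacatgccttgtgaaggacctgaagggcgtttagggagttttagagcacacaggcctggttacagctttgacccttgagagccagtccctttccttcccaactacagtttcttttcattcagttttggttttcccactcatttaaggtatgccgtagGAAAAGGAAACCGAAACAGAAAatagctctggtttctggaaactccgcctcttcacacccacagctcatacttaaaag
Gbp2: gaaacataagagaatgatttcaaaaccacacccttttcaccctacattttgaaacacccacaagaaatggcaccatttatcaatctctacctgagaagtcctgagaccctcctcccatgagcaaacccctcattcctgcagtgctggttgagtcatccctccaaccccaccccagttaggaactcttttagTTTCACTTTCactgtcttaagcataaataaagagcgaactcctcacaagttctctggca
In windows of 300 bases, from 250 before to 50 after the start, 8 of the 14 called members with a RefSeq window held the element (57.1%), as did 11 of the 19 members that were not called (57.9%), 382 of 10494 genes tested (3.64%) and 3.44% of all windows. Among the pooled calls with a window, 13 of 294 higher genes (4.42%) and 31 of 306 lower genes (10.1%) had a match, and 23 of 292 lower genes (7.88%) outside the interferon list. These are letter matches and not measured binding sites.

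In the mean of the antibodies, genes of antigen presentation by MHC were also called in the lower direction alone. Of 22 tested, 4 fell (18.2%, against 2.63% of all genes) and 0 rose. The list median was -0.17, and -0.35, -0.12 and -0.053 by antibody. Taken alone against MGO.53, Mel321-31, Mel322-34 and Mel321-35 gave 9, 2 and 0 lower calls among the 22. Psmb8, a subunit of the immunoproteasome and also low in the batch 2 library, stood at 1.78, 0.717, 1.16 and 1.63 CPM with Mel321-31, 2.17, 2.37, 1.00 and 3.26 CPM with Mel322-34, 1.47 and 2.45 CPM with Mel321-35 and 3.38, 3.77, 2.14 and 4.66 CPM with MGO.53 and fell by 0.97 ± 0.24 (SE) on the log2 scale. Every Mel321-31 library lay below every control, and 4 of the other 6 antibody libraries lay in the control range. The peptide transporter subunits Tap2 (-0.64) and Tap1 (-0.46) and the heavy chain H2-D1 (-0.26) completed the 4. H2-D1 had 101, 89.5, 91.3 and 89.6 CPM with Mel321-31, 99.1, 124, 85.0 and 92.3 CPM with Mel322-34, 99.1 and 126 CPM with Mel321-35 and 119, 124, 110.3 and 133 CPM with MGO.53, so that 1 library of Mel322-34 and 1 of Mel321-35 lay within the control range. None of the 22 was called without MGO.53 replicate 2 or without MGO.53 replicate 4 (edgeR), and the list median was -0.13 in both fits. In the full fit 12 of the 22 had an unadjusted p under 0.05, against 3079 of the 14633 genes tested. With the summed level of the 95 transcripts as a covariate, 0 were called and the median was 0.016.

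Immediate early genes and regulators of ERK feedback were called lower more often than higher. Of 34 tested, 7 fell (20.6%, against 2.63% of all genes) and 1 rose (2.94%, against 2.55%), with a median of -0.047. Dusp5, a nuclear phosphatase of ERK, stood at 0.795, 0.882, 1.5 and 1.10 CPM with Mel321-31, 2.45, 2.93, 1.66 and 1.96 CPM with Mel322-34, 2.31 and 2.45 CPM with Mel321-35 and 3.05, 3.72, 2.02 and 4.43 CPM with MGO.53, and its log2 fold change was -0.88 ± 0.20 (SE), or -1.61, -0.55 and -0.47 by antibody. The overlap was of the same kind, with 4 of the 6 libraries of Mel322-34 and Mel321-35 in the control range. The AP-1 subunit Fosl1 (-0.89), the zinc finger factor Egr1 (-0.61), Ier5l (-0.37) and the nuclear receptors Nr4a1 (-0.15) and Nr4a3 (-0.11) fell with Myc, and Spred1, an inhibitor of RAS, rose by 0.14. Myc was the sole member called without MGO.53 replicate 2, with a list median of -0.060. Of 26 NF-kB targets, 1 fell, the prostaglandin synthase Ptgs2 (-0.63), and 1 rose, Birc2 (0.31). These are 3.85% each, against 2.63% and 2.55% of all genes. The list median was -0.062, and -0.37, -0.15 and 0.12 by antibody. Neither Ptgs2 nor Birc2 was called without MGO.53 replicate 2, and the list median was then -0.027.

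Genes of the stress programmes of translation were called mostly lower. Of 25 genes of the integrated stress response, in which phosphorylated eIF2 favours ATF4 translation, 7 fell and 1 rose. These are 28% and 4%, against 2.63% and 2.55% of all genes. The list median was -0.064, and -0.11, -0.087 and 0.0023 by antibody. Gdf15, a secreted stress cytokine, stood at 4.77, 2.51, 3.86 and 4.50 CPM with Mel321-31, 4.65, 10.6, 4.35 and 5.46 CPM with Mel322-34, 5.36 and 8.89 CPM with Mel321-35 and 10.2, 10.1, 8.58 and 12.3 CPM with MGO.53 and fell by 0.89 ± 0.17 (SE) on the log2 scale (adjusted p = 0.00494), a call that no single library removed. With the summed level of the 95 transcripts, of which it is 1, as a covariate, its log2 fold change was -0.27 (adjusted p = 0.366). Mel322-34 replicate 2 and Mel321-35 replicate 4 lay in the control range, and the batch 2 level was 0.156 CPM. Cebpb (-0.34), Trib3 (-0.34), Ppp1r15a, which dephosphorylates eIF2 (-0.36), the serine hydroxymethyltransferase Shmt2 (-0.14), Atf5 (-0.14) and the amino acid transporter chain Slc3a2 (-0.12) also fell, while the folate enzyme Aldh1l2 rose by 0.17. Without MGO.53 replicate 2, 1 member of this list was called, with a list median of -0.053, and with the covariate 0 were called. Of 21 genes of endoplasmic reticulum stress, 1 fell (4.76%, against 2.63% of all genes), the ubiquitin ligase Syvn1 (-0.14). The list median of 0.0063 changed sign under another scaling and was -0.0044 without MGO.53 replicate 2.

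Genes for cytosolic ribosomal proteins were called in the lower direction, by small amounts. Of 78 tested, 23 fell (29.5%, against 2.63% of all genes) and 0 rose, with a median of -0.10 and 70 of 78 below 0. Without MGO.53 replicate 2, 5 were called lower, and without its replicate 4, 8, with list medians of -0.10 and -0.093. Rps27 stood at 339, 297, 294 and 282 CPM with Mel321-31, 321, 270.5, 288 and 312 CPM with Mel322-34, 316 and 306 CPM with Mel321-35 and 338, 357, 359 and 375 CPM with MGO.53, and fell by 15%. Rpl28 fell by 12%, and both were called whichever library was left out. Transcripts of this family are short, and with the length trend removed 12 fell and 2 rose, with a median of -0.049. Of 74 nuclear genes of the respiratory chain, 13 fell (17.6%, against 2.63% of all genes) and 0 rose, with a median of -0.062. With the length trend removed, 5 were called lower and 4 higher, with a median of -0.018. The loss of MGO.53 replicate 2 left 1 lower call and a median of -0.066. Uqcrq, a small subunit of complex III, stood at 217, 184, 181 and 178 CPM with Mel321-31, 195, 188, 173 and 188 CPM with Mel322-34, 198 and 186 CPM with Mel321-35 and 220.4, 235, 209 and 230.3 CPM with MGO.53 and fell by 15.3%, and Cox8a, of complex IV, by 13.6%. Among 7 genes encoded in mitochondria, 2 fell (28.6%, against 2.63% of all genes), mt-Nd4 (-0.24) and mt-Cytb (-0.17). The other 5 did not pass, and the list median was -0.11. Without MGO.53 replicate 2, mt-Nd4 alone was called, with a list median of -0.066. Mel321-31 replicate 1 reached the control range for Rps27 and Uqcrq, and Mel321-35 replicate 4 for Rpl28.

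Cell cycle genes were called higher for mitosis and mostly lower for replication. Of 37 genes of G2 and mitosis, 10 rose (27.0%, against 2.55% of all genes) and 0 fell, with a median of 0.055. Aspm, which organises spindle poles, stood at 80.5, 94.6, 90.1 and 85.4 CPM with Mel321-31, 86.6, 88.7, 98.2 and 93.1 CPM with Mel322-34, 82.6 and 77.6 CPM with Mel321-35 and 76.0, 71.3, 73.5 and 70.2 CPM with MGO.53 and rose by 18.6% (log2 fold change 0.25 ± 0.043 (SE), adjusted p = 0.00232), and the kinetochore scaffold Knl1 rose by 17.0%. For both genes every antibody library lay above every control. The condensin subunits Smc2 (0.14) and Ncapg (0.13), the topoisomerase Top2a (0.12), Cenpf (0.15), Ect2 (0.15), Kif11 (0.12), Hmmr (0.12) and Ckap5 (0.12) made up the rest. With the length trend removed, 7 of these 37 rose, and without MGO.53 replicate 2, 2 did. The list medians in these fits were 0.046 and 0.055. Of 39 genes of DNA replication, 4 fell (10.3%, against 2.63% of all genes) and 1 rose (2.56%, against 2.55%). The list median was -0.047. Without MGO.53 replicate 2 Cdt1 alone was called, with a list median of -0.059. Cdt1, which licenses origins, stood at 131, 122, 120.5 and 123 CPM with Mel321-31, 127, 114, 118 and 117 CPM with Mel322-34, 119.9 and 129 CPM with Mel321-35 and 141, 145, 135 and 141 CPM with MGO.53, with no overlap, and fell by 12.8%. Chaf1b (-0.12), Tk1 (-0.11) and the primase partner Pola2 (-0.15) fell and the polymerase subunit Pola1 rose (0.14). Of 32 genes of ribosome biogenesis and Myc targets, 3 fell (9.4%, against 2.63% of all genes), Myc, the spermidine synthase Srm (-0.18) and Bysl (-0.17).

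In the pooled contrast, hypoxia-responsive and p53-responsive genes were called in the higher direction alone. Of 31 targets of hypoxia-inducible factors, 5 rose (16.1%, against 2.55% of all genes) and 0 fell, with a median of 0.041. Beside Pfkl they were the kinase Pdk1, which restrains pyruvate oxidation (0.28), the collagen hydroxylases Plod2 (0.19) and P4ha1 (0.17) and the glycolytic kinase Pgk1 (0.16). Pgk1 stood at 928, 914, 892 and 899 CPM with Mel321-31, 858, 995, 871 and 862 CPM with Mel322-34, 919 and 972 CPM with Mel321-35 and 863, 763, 852 and 792 CPM with MGO.53. Its second control value was the lowest of the 14, and the call was lost without that library (adjusted p = 0.0733). With the length trend removed 7 targets rose, with the summed level of the 95 transcripts as a covariate 5, and without MGO.53 replicate 2, 2. The list median without that library was 0.016. Of 24 p53 targets, 4 rose (16.7%, against 2.55% of all genes) and 0 fell, with a median of 0.049. By antibody the median was -0.0085, 0.055 and 0.12. With Mel321-31 alone, 0 of the targets were called higher and 1 lower. Trp53inp1, a p53 cofactor, had 66.8, 81.4, 84.0 and 82.2 CPM with Mel321-31, 87.5, 92.2, 97.5 and 87.8 CPM with Mel322-34, 94.6 and 77.0 CPM with Mel321-35 and 69.2, 73.5, 68.9 and 67.9 CPM with MGO.53 and rose by 22%, a call that no single library removed. The others that rose in the mean were Rrm2b (0.22), Mdm2, the p53 ubiquitin ligase (0.15), and cyclin G1, Ccng1 (0.14). Without MGO.53 replicate 2, and likewise without its replicate 4, 1 of the 24 was called, and with the covariate 0. The list medians without these libraries were 0.056 and 0.058. Mel321-31 replicate 1 lay below every control for Trp53inp1 and Mdm2, and the other 9 antibody libraries above every control.

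Among 32 apoptosis regulators, 3 rose (9.4%, against 2.55% of all genes) and 2 fell (6.25%, against 2.63%), with a median of 0.027. Birc2, the caspase inhibitor Cflar (0.13) and the apoptosome scaffold Apaf1 (0.16) rose, and the pore-forming Bak1 (-0.17) and its relative Bok (-0.91) fell. Bak1 stood at 182, 182, 181 and 185 CPM with Mel321-31, 178, 165, 179 and 176 CPM with Mel322-34, 180.3 and 176 CPM with Mel321-35 and 195, 211, 191 and 204 CPM with MGO.53, and its call held without any single library, the sole one of this list without MGO.53 replicate 2. The list median without that library was 0.015. Of 30 targets of NRF2 and genes of iron handling, 5 fell (16.7%, against 2.63% of all genes) and 1 rose (3.33%, against 2.55%). The gene that rose was the transferrin receptor Tfrc (0.15), and the list median was -0.031. Gstm1 (-0.20), Blvrb (-0.24), Osgin1 (-0.20), Nfe2l2 (-0.11) and Ftl1 (-0.099) were the 5. Of 26 genes of cholesterol synthesis and uptake, 1 fell (3.85%, against 2.63% of all genes) and 0 rose, with a median of -0.038. No member of the NRF2 and iron list or of the cholesterol list kept its call without MGO.53 replicate 2. The list medians were then -0.043 and -0.034.

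Of 19 genes of pigment and the melanocyte lineage, 3 fell (15.8%, against 2.63% of all genes) and 1 rose (5.26%, against 2.55%), with a median of -0.0086. Erbb3 alone was called without MGO.53 replicate 2, with a list median of -0.020. Pmel, the fibril protein of melanosomes, stood at 6619, 6091, 6058 and 6039 CPM with Mel321-31, 6184, 5682, 5956 and 5875 CPM with Mel322-34, 5977 and 5809 CPM with Mel321-35 and 6545, 6376, 6426 and 6300 CPM with MGO.53, and fell by 6.35%. The channel Trpm1 fell by 7.65%, the lineage factor Sox10 fell as well (log2 fold change -0.10), and Erbb3 rose. Of 30 genes of invasion and adhesion, 4 rose (13.3%, against 2.55% of all genes) and 3 fell (10%, against 2.63%), with a median of 0.031. Without MGO.53 replicate 2 these were 1 and 1, with a median of 0.033. Those that rose included the integrins Itga6 (0.17), Itgb1 (0.13) and Itgav (0.13). Spp1, which encodes osteopontin (-0.80), S100a6 and the urokinase receptor Plaur (-0.31) fell. Of 26 genes of actin and its regulator SRF, 4 fell (15.4%, against 2.63% of all genes) and 0 rose, with a median of -0.054. The 4 were Actb, Actg1 (-0.14), Tagln2 (-0.67) and the scarce Tpm2 (-1.72). Actb alone was called without MGO.53 replicate 2, with a list median of -0.066. Of 43 large chromatin regulators, 1 rose, Atrx (0.15), and 1 fell, 2.33% each against 2.55% and 2.63% of all genes, and the median went from 0.041 to -0.020 with the length trend removed.

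**Figure D5:**
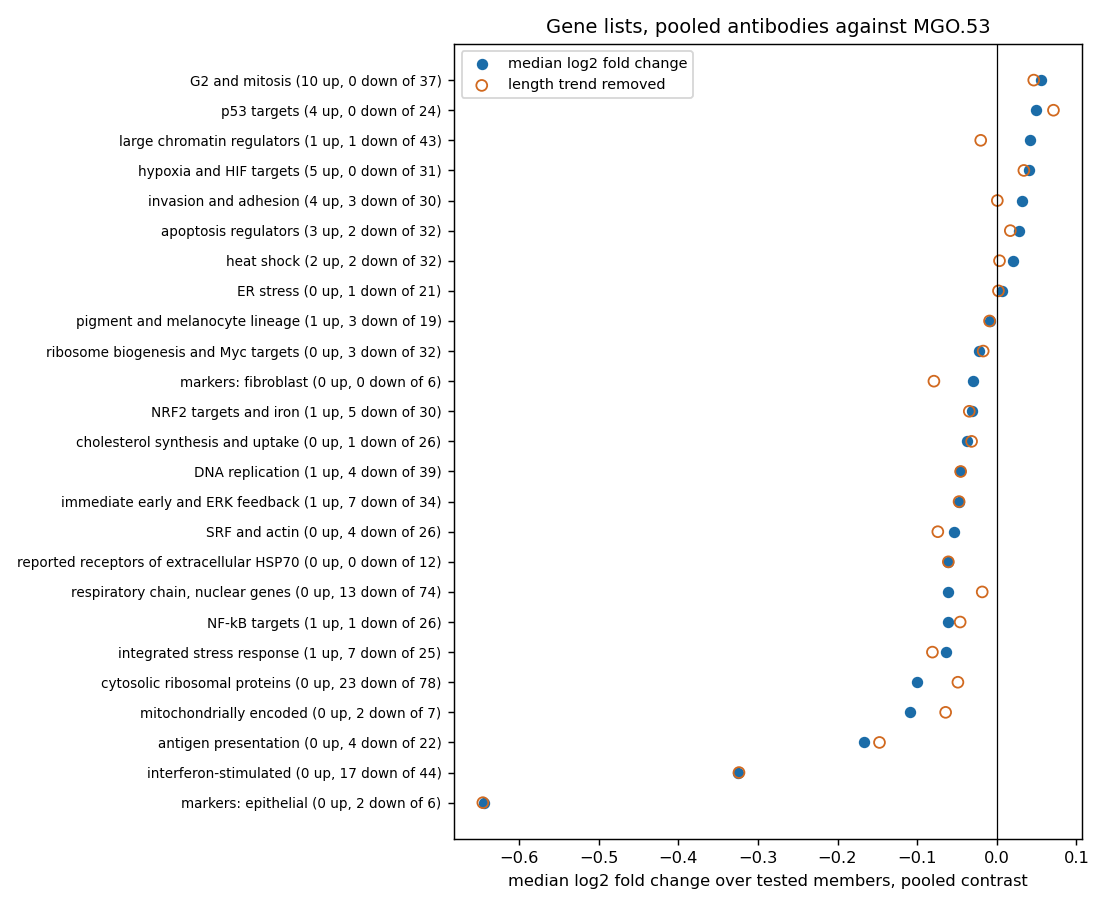
Median pooled log2 fold change (x axis) of each list with at least 5 tested members (y axis, with the number called up and down), as tested (filled) and with the length trend removed (open). Interferon-stimulated genes and epithelial markers lie farthest from 0, and the medians of the ribosomal and respiratory lists move toward 0 in the open symbols; the median of the ER stress list changes sign under another scaling.

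Among markers of other cell types, 1 set had called members. Of 6 epithelial markers tested, 2 fell (33.3%, against 2.63% of all genes), the keratins Krt8 and Krt18. The list median was -0.64, and 1 of the 6 lay above 0. With the summed level of the 95 transcripts as a covariate, 0 were called and the list median was -0.011. Cdh1, of the epithelial set summed above, averaged 1.65 CPM with the antibodies and 1.41 CPM in the controls. Krt8 stood at 2.23, 1.74, 2.00 and 2.65 CPM with Mel321-31, 2.94, 4.72, 2.32 and 3.64 CPM with Mel322-34, 2.12 and 5.63 CPM with Mel321-35 and 5.56, 7.08, 4.78 and 7.05 CPM with MGO.53 and fell by 1.01 ± 0.18 (SE) on the log2 scale (adjusted p = 0.00315), and the log2 fold change of Krt18 was -0.91 ± 0.21 (SE). Replicate 4 of Mel321-35 lay within the control range for Krt8. Both keratins are among the 95 transcripts that are low in the batch 2 library, as is the phosphatase gene Ppef1, the call with the smallest p of that set, at 1.65, 0.993, 1.31 and 1.69 CPM with Mel321-31, 2.22, 3.76, 1.44 and 2.40 CPM with Mel322-34, 1.92 and 1.99 CPM with Mel321-35 and 3.08, 4.50, 3.81 and 6.51 CPM with MGO.53 and a log2 fold change of -1.23 ± 0.20 (SE). Krt8 and Ppef1 read 0 CPM in the batch 2 library. The median log2 fold change of the 95 was -0.77, and they made up 43 of the 385 lower genes and 0 of the 369 higher ones. With these transcripts left out of the table, 715 genes were called (369 higher, 346 lower), and their covariate fit is given beside some of the lists above. Of 6 fibroblast, 4 macrophage and leukocyte and 2 endothelial markers tested, edgeR called 0. Of these, 1, 2 and 0 had an unadjusted p under 0.05, against 3079 of the 14633 genes tested. For T and NK cells, 0 markers had enough counts to test.

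A mean over antibodies can hide unequal ones, so the antibodies were also compared among themselves, in a contrast that leaves out the controls. It called 32 genes (0.219%), and 1307 (8.93%) had an unadjusted p under 0.05. Of these 32, 6 were also called in the mean, among them Pmepa1, Scube3, Utrn, Erbb3 and Ptgs2. Scube3, a secreted glycoprotein, stood at 27.9, 28, 26.9 and 27.4 CPM with Mel321-31, 36.1, 34.0, 32.8 and 34.9 CPM with Mel322-34, 25.4 and 25.8 CPM with Mel321-35 and 23.8, 25.2, 22.8 and 23.1 CPM with MGO.53. All antibody libraries lay above the controls, and the log2 fold changes were 0.22, 0.54 and 0.11 (adjusted p of the difference among antibodies = 0.00110). Pmepa1, a negative regulator of TGF-beta signalling, had 0.094, 0.38 and -0.023 (adjusted p = 0.000971), Utrn, the dystrophin relative, 0.19, 0.36 and -0.0052 (adjusted p = 0.00416) and Erbb3 0.18, 0.43 and 0.16 (adjusted p = 0.00483). In these 4 genes the value with Mel322-34 was the highest of the 3. Ptgs2 was lowest with Mel321-31, at -1.31, -0.23 and -0.34 (adjusted p = 0.0457).

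The other 26 genes were not called in the mean and include genes that went opposite ways. The 5 given here were chosen after their values were seen. The NF-kB subunit Relb had log2 fold changes of -0.35, -0.096 and 1.00, a pooled value of 0.18 and an adjusted p of 0.000971 among antibodies. The chemokine gene Cxcl1 had -1.55, -0.68 and 2.19, the inhibitor Nfkbia -0.27, -0.15 and 0.61, the cytokine gene Csf1 -0.59, -0.17 and 0.72 and the AP-1 gene Junb -0.17, -0.042 and 1.00. Each was above MGO.53 with Mel321-35 and below it with the other antibodies, and their pooled log2 fold changes lay from -0.014 to 0.26. Leaving out Mel321-35 replicate 4 brought the 32 genes to 3, and leaving out its replicate 3 brought them to 52.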

How the data were processed

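Polyadenylated RNA was made into strand-specific libraries, per the labels' protocols. For 15 libraries the authors deposited raw counts and, for 19365 of 55414 identifiers, a normalised signal, the count divided by 1 size factor per library. STAR 2.7.10a, HTSeq 2.01 and DESeq2 are listed, per the submitters' processing notes. The sources used here give no genome build, annotation or strand setting of the counting, so overlapping and antisense genes cannot be told apart. The 6250 identifiers without values were left out. Counts of the 14 batch 1 libraries were fitted with edgeR 4.0.16 (TMM scaling, expression filter by group, quasi-likelihood F test) in R 4.3.3 with 4 groups. The pooled contrast was the mean of 3 antibody coefficients minus MGO.53, p-values were Benjamini-Hochberg adjusted over 14633 genes, and a further contrast tested differences among the antibodies. The biological coefficient of variation was 5.46%, on 10 residual degrees of freedom. CPM used TMM-scaled library sizes. The fit was tested on simulated data. Single values were compared by an exact two-sided permutation of libraries.

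Members and gene lists were chosen with earlier results of these data known. Counts for lists are descriptions beside the share of all genes called. Genes named by rule were the 10 largest changes in each direction without overlap of libraries and the 6 smallest p-values in each direction, both among called genes with 1 sign for all antibodies, no clone name and a mean log2 CPM of at least 1. Without these limits, the rule added up to 3 called members of each list, genes called with each antibody alone, called genes that differed among antibodies, and 6 HSP70-related genes, called or not. Other list members are given as the called members of their list, and a few named genes are not reported here. The longest transcript per gene came from GENCODE M21, and promoter windows came from RefSeq on GRCm38.p6, matched by symbol for 10494 of the genes tested. Alternatives were other scalings, filters and tools (DESeq2 1.42.0, limma-voom 3.58.1), batch 2 included, length trend removed, covariates, a replicate block, other pools and each library left out. The 2 alternatives chosen after seeing the data were the total count covariate and the loss of MGO.53 replicate 2 with the length trend removed.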

Additional observations from a re-analysis of the deposited data

Results flagged for a closer look

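In 22 of 264 gene and group pairs with 4 libraries, 1 library lay far from the other 3, where chance gives about 1 in 20. Of these, 10 were Mel321-31 replicate 1. Its CPM was 12.6 for Cdc42ep5, 100.8 for H2-D1, 1512 for Hsp90aa1, 161.4 for Hsph1, 159.8 for Mdm2, 6619 for Pmel, 76.54 for Skil, 443.4 for Tfrc, 66.78 for Trp53inp1 and 216.6 for Uqcrq. The other Mel321-31 libraries had 81.37 to 83.99 CPM of Trp53inp1 and 6039 to 6091 CPM of Pmel. In the remaining libraries the values were 2543 CPM for Actb in Mel321-31 replicate 4, 58.58 CPM for Aldh1l2 and 96.62 CPM for P4ha1 in MGO.53 replicate 4, 15.55 CPM for Birc2 in Mel321-31 replicate 3, 17.81 CPM for Chst12 and 82.97 CPM for Hspa13 in Mel322-34 replicate 3, 166.6 CPM for Cox8a and 122.1 CPM for Srm in MGO.53 replicate 2, 1.048 CPM for Krt18 in Mel321-31 replicate 2, 994.7 CPM for Pgk1 in Mel322-34 replicate 2, 10.61 CPM for Rpp38 in Mel322-34 replicate 4 and 17.83 CPM for Spsb1 in MGO.53 replicate 3. 

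For 5 genes called in the mean, the antibodies differed in the test among antibodies. The adjusted p (edgeR) was 0.00483 for Erbb3, 0.000971 for Pmepa1, 0.0457 for Ptgs2, 0.0011 for Scube3 and 0.00416 for Utrn. The batch 2 library of Mel321-35, which entered no comparison, had 183.3 CPM of Pfkl, above the 4 MGO.53 libraries at 139.1 to 147.2 CPM. It is a single library from another batch, so batch and antibody cannot be told apart there.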

How the results depend on the processing

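The 758 calls and the 754 with 1 sign for all antibodies stayed within 1.5 times under RLE scaling (746), the authors' size factors (743), limma-voom (634), DESeq2 (1074) and no filter on low counts (1054). The split of higher and lower calls was 308 and 450 with upper quartile scaling and 443 and 353 with total count scaling. With 15 libraries and no batch term, 484 and 484 genes were called, and with a batch term 750. The mean of Mel321-31 and Mel322-34 gave 1357 and 1257, that of Mel321-31 and Mel321-35 261 and 261, and that of Mel322-34 and Mel321-35 350 and 345. The low-transcript covariate gave 117 and 117, the total count covariate 0 and 0, with the lowest adjusted p at 0.05999, and the loss of MGO.53 replicate 2 with the length trend removed 137 and 136. An adjusted p under 0.01 gave 152 and 151. Tests against a 1.2-fold and a 1.5-fold change gave 0 and 0, with 398 and 172 genes at an unadjusted p under 0.05. Requiring no overlap of libraries gave 273, and a call with each antibody alone 2.

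Leaving out 1 library gave 90 to 1475 calls, and 90 to 1446 with 1 sign for all antibodies. The 32 genes that differed among antibodies became 264 without a filter, 19 with a CPM of at least 1 in at least 4 libraries, 78 with DESeq2, 14 with limma-voom, 19 with the total count covariate and 12 at an adjusted p under 0.01, and 3 to 72 with 1 library left out. The total count difference of 7.10 M (M, 1000000 counts) ranged from 4.848 to 9.542 M with 1 library left out, and missed p = 0.05 without MGO.53 replicate 2, 3 or 4 (exact p = 0.0979, 0.0699 and 0.0699). The mitochondrial difference of -0.1935 percentage points ranged from -0.282 to -0.1078, and the log2 difference of the 95 transcripts from -0.9945 to -0.6886, missing p = 0.05 in the exact permutation test without MGO.53 replicate 2 or 4.

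Replicate numbers were not taken as pairs. Of 18 same-numbered pairs of libraries, 7 correlated above 0.1 (-0.148 to 0.282), against 10 of 54 other pairs. With the replicate block, 669 genes were called (312 higher, 357 lower), 666 with 1 sign for all antibodies and 28 among antibodies, and with the block and the length trend removed 607. Over 89 named genes, 2662 of the gene and alternative pairs kept direction and side of the threshold, 619 lost the call and 1 changed sign, Tap2 with the low-transcript covariate (2.158e-05). For each changed value above, the cause was not tested. Scarce transcripts limit the largest folds, since 7 of 7 higher and 30 of 32 lower calls of 2-fold or more lay under 1 mean log2 CPM.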

Other observations

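The 77 genes called whichever library was left out comprise 41 higher and 36 lower genes, and in 60 of them the libraries did not overlap. Beyond those described above, the higher ones include Cyld, a deubiquitinase of NF-kB signalling (0.19 log2 fold change), Adam10, a sheddase (0.17), Usp9x, a deubiquitinase (0.23), and the augmin subunits Haus3 (0.21) and Haus6 (0.21), which build spindle microtubules. The lower ones include Lgals1, a galectin (-0.19), Impdh2, of guanine nucleotide synthesis (-0.18), Chchd10, of the mitochondrial intermembrane space (-0.25), Cotl1, an actin-binding protein (-0.17), Timm50, of protein import into mitochondria (-0.16), and Efhd2 (-0.19). These were chosen after their values were seen.

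Genes named in the Zfp series, which encode zinc finger proteins, were also counted after the data were seen. Of 339 tested, 11 rose and 1 fell, where 2.55% and 2.63% of all genes were called, with a median log2 fold change of 0.060, against -0.00045 over all genes tested. With the length trend removed, 6 rose and 1 fell, with a median of 0.044.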
